A study of Mus musculus with 8 samples.

Results

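The genes described here are the Zbtb genes, whose products mostly carry a BTB domain at one end and zinc fingers at the other. They were the rows of the deposited count table whose symbol starts with Zbtb and a digit, with at least 10 counts summed over all libraries. This took 42 of the 49040 genes in the table, and no such row fell under 10 counts, the lowest being Zbtb8b with 23. RNA sequencing had been done on Ikzf4-/- (Eos knockout) and wild-type CD4 T cells of mice, 4 libraries per genotype, with C57BL/6J given as the strain of both. Naive cells of both genotypes were cultured for 72 h on plates coated with antibodies to CD3 and CD28 under Th1-polarising conditions. Ikzf4 encodes Eos, a zinc-finger factor of the Ikaros family, and the question was how the transcriptome differs in its absence. How the Ikzf4 allele was made, and whether the libraries numbered 1 to 4 come from separate animals or cultures, is not given in the labels. The p-values therefore rest on the spread among the libraries as deposited, and some of that spread may be technical. The libraries numbered 2 also differed from the others of their genotype in sex-linked genes, as given below.

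ZBTB proteins are transcription factors, most of them known as repressors. The zinc fingers bind DNA, while the BTB (or POZ) domain pairs the proteins and recruits corepressors such as NCoR, SMRT and BCOR with their histone deacetylases. In T cells the family is known for lineage decisions: ThPOK (Zbtb7b) for the CD4 lineage, PLZF (Zbtb16) for innate-like T cells, and Bcl6, a relative with another symbol, for follicular helper cells.

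Library totals ran from 25227017 to 53149322 counts, and 14672 genes passed edgeR's filter on low counts, among them 40 of the 42 Zbtb genes. Zbtb16 and Zbtb8b did not pass. Ikzf4 stood at 2.14, 2.58, 4.88 and 3.63 CPM (counts scaled to a common library size) in knockout libraries 1 to 4, against 41.1, 41.4, 48.1 and 54.9 CPM in wild-type libraries 1 to 4, so the labels held. Libraries with the same number resembled each other across genotypes, and the libraries numbered 2 alone in each group had high Xist (588 CPM in knockout and 503 CPM in wild type) and almost no Ddx3y, as known from female cells. Results of a pair of edgeR quasi-likelihood fits are therefore given, one with genotype as its only term and one that adds the replicate number as a block. CD4 T cell markers were high in every library, with Cd4 at 459 to 695 CPM in knockout and 439 to 602 CPM in wild type.

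As a family, the Zbtb genes differed little between the genotypes. They held 0.107% to 0.119% of all counts in knockout libraries and 0.110% to 0.124% in wild-type libraries. With genotype as the only term, 0 of the 40 tested passed an adjusted p of 0.05 (edgeR), where 0.157% of all genes tested did, and DESeq2 called 0 as well, where it called 1.46% of all genes. At an unadjusted p under 0.05 there were 4 of 40, or 10%, beside 8.1% of all genes. With the replicate block 3 passed, or 7.5% of the 40, beside 6.71% of all genes. Zbtb32 was lower in the knockout (1 of 40, beside 4.01% of all genes called lower), and Zbtb10 and Zbtb18 were higher (2 of 40, beside 2.69% called higher). The share of Zbtb genes called was thus near the share of all genes in both fits. DESeq2 with the block called 6 of 40, or 15%, beside 9.64% of all genes, adding Zbtb38 to the lower side and Zbtb5 and Zbtb7c to the higher side. The median log2 change of the 40 was 0.06 in both edgeR fits, beside a median of -0.003 over all genes with genotype only and 0.003 with the block. In the blocked fit 35 of the 40, or 87.5%, changed by less than 0.5 on the log2 scale, against 86.5% of all genes.

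**Figure D1:**
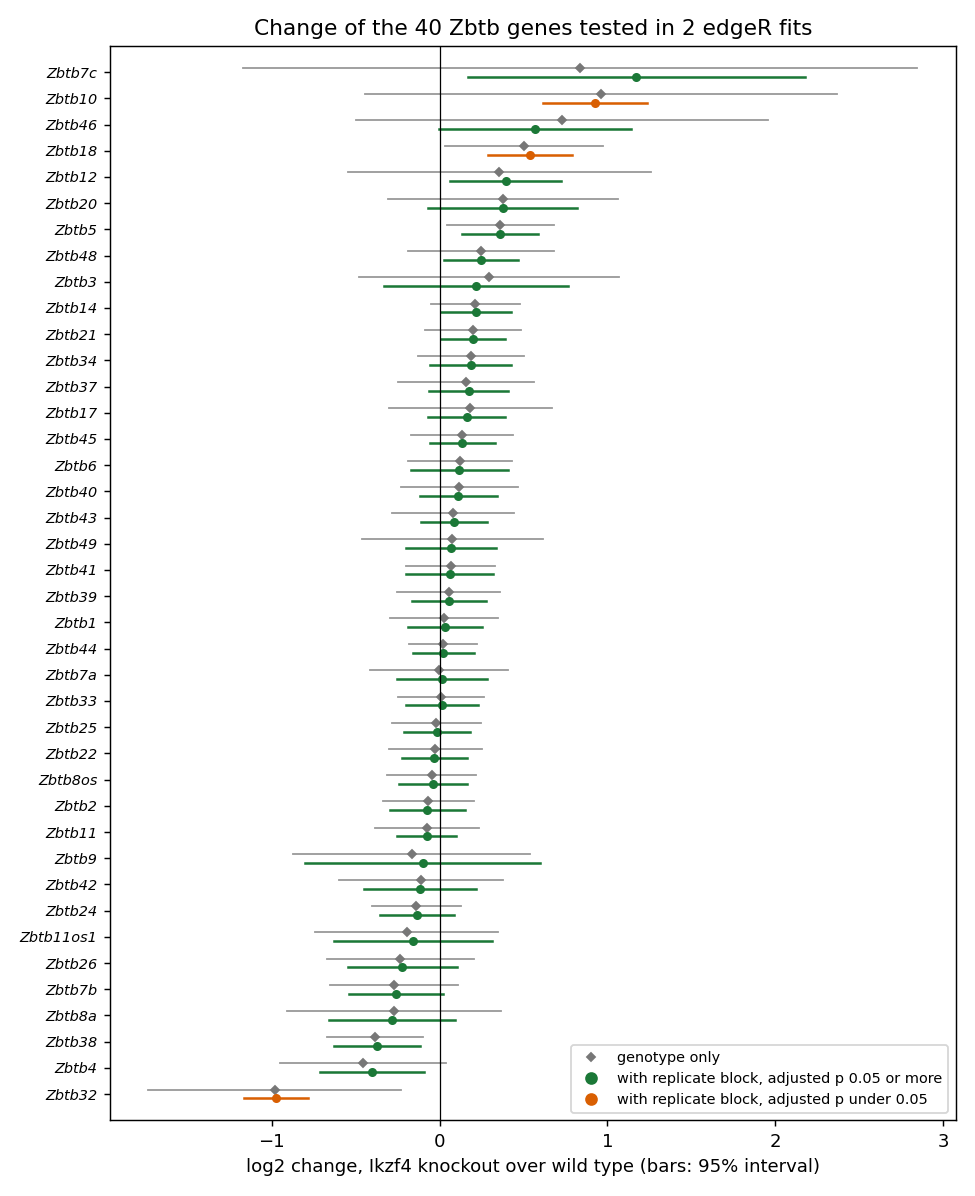
Log2 change of each of the 40 Zbtb genes tested, knockout over wild type, with 95% intervals from the fit with genotype only (grey) and with the replicate block (green, or orange where the adjusted p was under 0.05). Zbtb32 lies at -0.98 in both fits, and its interval narrows from -1.74 to -0.23 without the block to -1.17 to -0.79 with it.

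Levels were compared between genes per kilobase of annotated exon, using the exons of GENCODE M21 on GRCm38, since the authors' annotation is not given. On this scale Zbtb32 had the highest mean of the members in both genotypes, at 27.9 CPM per kb in knockout and 55.1 CPM per kb in wild type. In knockout 1 and knockout 2, however, Zbtb17 stood above Zbtb32, so this rank does not hold in every knockout library. Zbtb17 (20.003 and 17.6 CPM per kb), Zbtb7a (19.5 and 19.5) and Zbtb7b (17.7 and 21.4) came next, in knockout and wild type in that order, and these 3 did not differ from each other beyond the spread of their libraries. Zbtb22 followed at 14.0 CPM per kb in knockout and 14.3 CPM per kb in wild type. The lowest were Zbtb20 (0.158 and 0.121 CPM per kb), Zbtb16 (0.0856 and 0.0395) and Zbtb8b (0.0123 and 0.00937). The rank of Zbtb20 depends on its 30.73 kb of annotated exon, taken over all its transcripts. Before division by length it averaged 4.29 CPM over all libraries, against 0.618 CPM for Zbtb9, which ranks above it per kb.

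**Figure D2:**
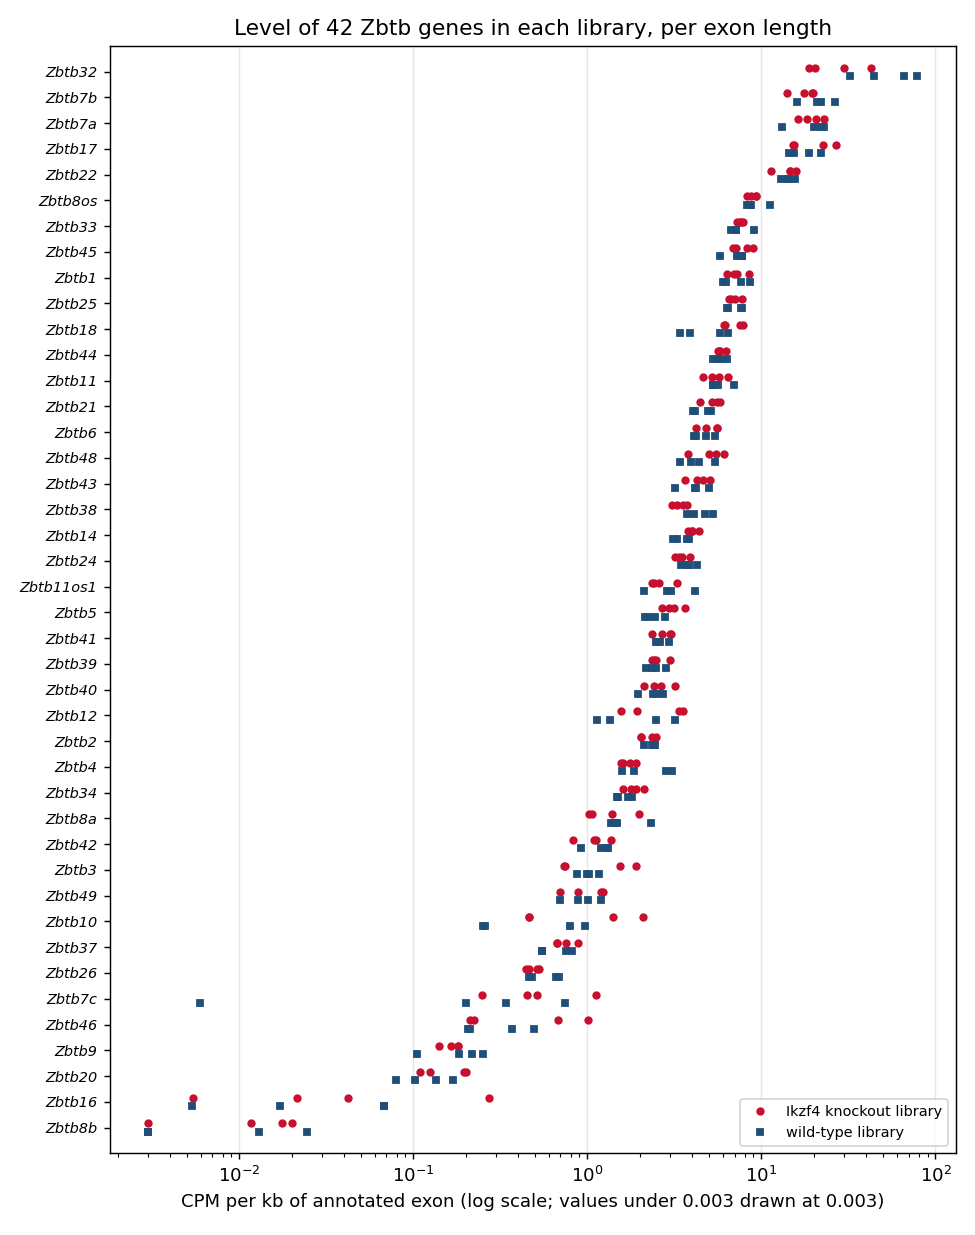
CPM per kilobase of annotated exon (log axis) for the 42 Zbtb genes, ordered by their mean, with 1 point per library for knockout (red circles) and wild type (blue squares). Zbtb32 stands at the top with its knockout points to the left of most wild-type points, while most other genes show overlapping points.

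Zbtb32, also called PLZP or ROG, is a repressor first known for holding down GATA3 and Th2 cytokine genes. It stood at 47.8, 44.3, 100.5 and 70.7 CPM in knockout libraries 1 to 4, against 104, 76.3, 185 and 155 CPM in wild-type libraries 1 to 4. Each knockout library lay below the wild-type library of its number, but the groups overlap, and the libraries numbered 3 and 4 were higher than those numbered 1 and 2 in both genotypes. The means were 65.8 ± 25.9 CPM in knockout and 130 ± 48.9 CPM in wild type (SD, n = 4 each). With the block the log2 change was -0.98 ± 0.08 (SE; 1.97-fold lower; edgeR adjusted p = 0.000506), and the call held whichever number was left out, with changes from -1.04 to -0.93. Without the block the change was the same, -0.98 ± 0.33, but the adjusted p was 0.474 in edgeR and 0.13 in DESeq2. A two-sided exact permutation test of the mean log2 CPM, which ignores the numbers, gave p = 0.0571, where the smallest possible is 0.0286. In bulk RNA, fewer cells that express a gene and less RNA per cell cannot be told apart. Gamma-delta receptor constant-region genes moved with genotype too, their sum being 6.16 to 19.8 CPM in knockout and 19.6 to 71.1 CPM in wild type. Within each genotype these were higher in libraries 1 and 2 than in 3 and 4, the reverse of Zbtb32. Some markers of other cell types followed Zbtb32 in genotype and number, and others of the same lists did not. Ly6g, a granulocyte marker, stood at 0.884, 0.0557, 14.8 and 9.14 CPM in knockout libraries 1 to 4, against 2.90, 0.0846, 61.8 and 78.9 CPM in wild-type libraries 1 to 4, and the NK gene Klre1 at 0.114, 0.204, 1.21 and 0.491 CPM in knockout, against 0.657, 0.423, 2.98 and 1.11 CPM in wild type. Klra7 of the same NK list was lower too (edgeR with the block, adjusted p = 0.0488). Klri2 was not called (0.702), and Ncr1 had no count. Eomes of that list stood at 12.3, 8.40, 2.11 and 2.95 CPM in knockout libraries 1 to 4. In wild-type libraries 1 to 4 Eomes stood at 4.82, 10.2, 3.73 and 1.90 CPM. Of the other granulocyte genes S100a8 had 0 counts, and S100a9 and Elane had under 10. The part of these markers' cells in the change of Zbtb32 was not tested.

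Zbtb32 (ENSMUSG00000006310) lies on chromosome 7 from 30589681 to 30598909 on the minus strand (GRCm38), and none of its exon bases are shared with another annotated gene. On the same build Zbtb10 lies on chromosome 3 from 9250602 to 9285333 (plus strand), Zbtb18 on chromosome 1 from 177442351 to 177450764 (plus strand) and Zbtb38 on chromosome 9 from 96682770 to 96752831 (minus strand). The 250 bases before the most upstream RefSeq start site are shown for Zbtb32 and Zbtb18, called in the blocked edgeR fit, and for Zbtb38. Zbtb38 was not called by edgeR in either fit, but its groups did not overlap. Capitals mark GGGAA on either strand (TTCCC on the printed one), the core of sites that Ikaros-family proteins bind. No promoter of Zbtb10 was matched.
Zbtb32, chr7:30598910-30599159, minus strand: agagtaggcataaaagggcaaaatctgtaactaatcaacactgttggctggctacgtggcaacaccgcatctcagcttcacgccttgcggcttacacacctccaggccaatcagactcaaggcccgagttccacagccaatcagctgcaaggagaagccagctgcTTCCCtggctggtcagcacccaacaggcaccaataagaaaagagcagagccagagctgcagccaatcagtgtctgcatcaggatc
Zbtb18, chr1:177442101-177442350, plus strand: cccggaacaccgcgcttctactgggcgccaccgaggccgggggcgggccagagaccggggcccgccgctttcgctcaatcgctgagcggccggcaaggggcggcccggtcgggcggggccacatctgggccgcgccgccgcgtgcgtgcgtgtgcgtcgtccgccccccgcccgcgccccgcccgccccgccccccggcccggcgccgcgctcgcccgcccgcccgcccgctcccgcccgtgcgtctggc
Zbtb38, chr9:96731676-96731925, minus strand: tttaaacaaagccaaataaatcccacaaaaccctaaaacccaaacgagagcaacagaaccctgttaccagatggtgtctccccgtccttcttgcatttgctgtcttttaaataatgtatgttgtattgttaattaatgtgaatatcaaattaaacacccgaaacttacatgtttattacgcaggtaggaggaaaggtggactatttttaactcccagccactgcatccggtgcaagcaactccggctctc
The Zbtb32 window holds 1 match, 85 bases before the start site, and those of Zbtb18 and Zbtb38 hold none, although some start sites listed further downstream in Zbtb18 have 1. The Zbtb38 window lies within the gene as annotated in GENCODE M21, which starts further upstream, at 96752831. GGGAA occurred in 60% of the 50 promoter windows matched to 37 Zbtb genes, and in 56.2% of all 32851 windows of this length in the table (RefSeq, GRCm38.p6). TGGGAA, which contains GGGAA and was counted within those matches, occurred in 22% and 21.6%. A match here describes letters only.

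Zbtb10 and Zbtb18 were higher in the knockout in the blocked fit. Zbtb10, whose human counterpart is described as a repressor of Sp-factor genes, stood at 15.5, 10.5, 3.43 and 3.40 CPM in knockout libraries 1 to 4, against 7.14, 5.89, 1.86 and 1.90 CPM in wild-type libraries 1 to 4. It was higher in the knockout in 4 of 4 pairs, yet the libraries numbered 1 and 2 exceeded those numbered 3 and 4 in both genotypes by more than the knockout exceeded wild type. The log2 change was 0.93 ± 0.14 (1.90-fold; edgeR with the block, adjusted p = 0.00603), held whichever number was left out (0.84 to 0.97), and had an adjusted p of 0.767 without the block. Zbtb18, known as RP58 and as a repressor in developing neurons, stood at 47.9, 46.2, 37.5 and 38.1 CPM in knockout libraries and at 35.3, 39.6, 23.9 and 20.9 CPM in wild-type libraries. Only wild type 2 reached into the knockout range. Its log2 change was 0.54 ± 0.11 with the block (1.45-fold; edgeR adjusted p = 0.0247) and 0.50 ± 0.21 without it (adjusted p = 0.574). The call of Zbtb18 was lost when number 1, 3 or 4 was left out (log2 changes of 0.57, 0.50 and 0.44, adjusted p of 0.0815, 0.125 and 0.0819) and kept when number 2 was (0.65, 0.00948).

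**Figure D3:**
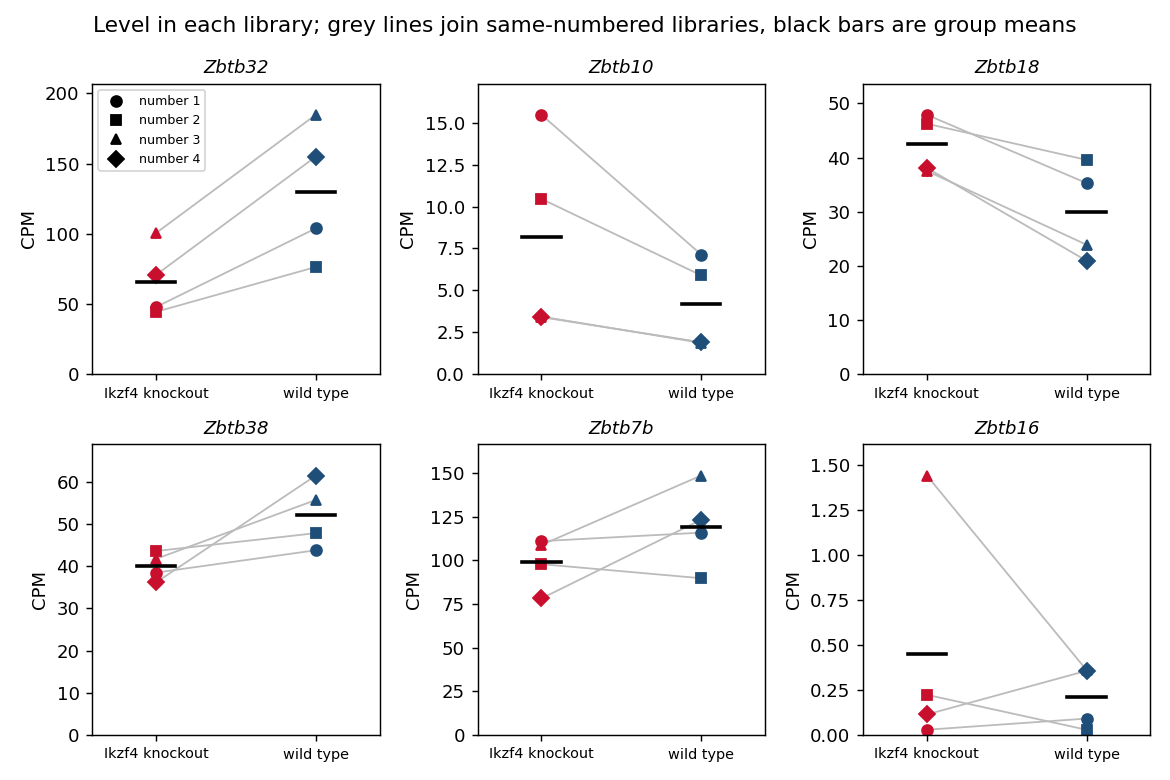
CPM in each library for 6 Zbtb genes, knockout on the left and wild type on the right, with symbols for replicate numbers, grey lines joining same-numbered libraries and black bars for group means (axes start at 0). The lines of Zbtb32 all run upward toward wild type and those of Zbtb10 and Zbtb18 all downward, whereas those of Zbtb16 are mixed, with knockout 3 highest at 1.44 CPM.

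The members best known from T cell development were not called in either fit. Zbtb7b (ThPOK) stood at 111, 97.8, 109 and 78.2 CPM in knockout libraries 1 to 4, against 116, 89.8, 149 and 123 CPM in wild-type libraries. In 3 of 4 pairs the knockout library lay below its wild-type partner, and the groups overlap. Its log2 change was -0.27 ± 0.17 without the block (95% interval -0.65 to 0.11, edgeR adjusted p = 0.753) and -0.26 ± 0.12 with it (-0.54 to 0.02, adjusted p = 0.27). Zbtb7a (LRF), which shares work with ThPOK in keeping the CD4 lineage, stood at 155, 124, 141 and 109.7 CPM in knockout libraries and at 155, 89.9, 149 and 137 CPM in wild-type libraries. The log2 change of Zbtb7a was -0.004 without the block (95% interval -0.41 to 0.41) and 0.02 with it (-0.25 to 0.28), so its sign depends on the fit.

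Zbtb17 encodes Miz-1, a partner of MYC that is needed early in lymphoid development. It averaged 77.6 ± 22.1 CPM in knockout and 68.4 ± 13.6 CPM in wild type (SD, n = 4 each), a log2 change of 0.16 ± 0.10 with the block (edgeR adjusted p = 0.401). The libraries numbered 1 and 2 were the highest in each genotype. Zbtb1, required for lymphocyte development, averaged 88.2 ± 11.0 CPM in knockout and 86.5 ± 14.9 CPM in wild type. Its neighbour Zbtb25 starts on the other strand of chromosome 12 with 663 bases between the genes, and averaged 21.8 ± 1.67 CPM in knockout and 22.1 ± 2.38 CPM in wild type. With the block the 95% intervals of both excluded changes larger than 0.26 on the log2 scale in either direction. Zbtb20, a factor of plasma cells and hippocampal neurons, stood at 3.36 to 6.20 CPM in knockout and 2.45 to 5.22 CPM in wild type and was not called.

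Zbtb16, which encodes PLZF, had few counts. It had 1, 12, 37 and 3 counts in knockout libraries 1 to 4, against 4, 1, 11 and 9 counts in wild-type libraries 1 to 4. Knockout 3 alone held 37 of the 78 counts in all. The sums were 53 counts in knockout (exact Poisson 95% interval 39.7 to 69.3) and 25 counts in wild type (16.2 to 36.9), and without knockout 3 the other knockout libraries held 16 (9.15 to 26.0). These intervals cover counting error only. The difference in mean log2 CPM, knockout minus wild type, was 0.37 (two-sided exact permutation test, p = 0.771) and -0.44 when knockout 3 was left out. Its direction thus turned without knockout 3, and also when number 2 was left out of both genotypes (-0.050).

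Kaiso (Zbtb33), Zbtb4 and Zbtb38 are known to bind methylated CpG sites. Zbtb38 was the only one of the 40 tested, or 2.5%, whose groups did not overlap, beside 4.96% of all genes (2.49% lower). It stood at 38.5, 43.6, 41.7 and 36.2 CPM in knockout libraries 1 to 4, against 43.8, 47.8, 55.7 and 61.5 CPM in wild-type libraries. The gap between the highest knockout and the lowest wild-type library was small. Its log2 change was -0.38 ± 0.13 without the block (edgeR adjusted p = 0.458) and -0.37 ± 0.11 with it (adjusted p = 0.0889), so it was not called in either edgeR fit. The two-sided exact permutation test gave p = 0.0286, the smallest possible. Any gene whose groups do not overlap gets this value, so it adds nothing to the lack of overlap. DESeq2 with the block called it (adjusted p = 0.0329), and so did edgeR with the block when number 2 was left out (0.0456). Zbtb4 stood at 12.9, 12.7, 14.3 and 15.3 CPM in knockout libraries and at 15.0, 12.9, 23.0 and 24.97 CPM in wild-type libraries. The difference lay mainly in the libraries numbered 3 and 4, and the blocked log2 change was -0.40 ± 0.14 (edgeR adjusted p = 0.124). Zbtb33 averaged 38.7 ± 1.38 CPM in knockout and 38.5 ± 5.52 CPM in wild type, with a blocked 95% interval of -0.20 to 0.23.

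Some of these genes differed widely between replicate numbers. For 5 of the 40 tested, or 12.5%, the mean log2 CPM of the 4 numbers ranged over 1 or more, beside 21.2% of all genes. These ranges belonged to Zbtb7c (3.76), Zbtb10 (2.03), Zbtb46 (1.497), Zbtb12 (1.32) and Zbtb32 (1.23). Of these, Zbtb10 and Zbtb46 differed by 1 or more between numbers 1 and 2 and numbers 3 and 4 in the same direction in both genotypes, which is 5% of the 40 beside 6.72% of all genes.

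Zbtb46, the factor that marks conventional dendritic cells, stood at 5.79, 8.55, 1.79 and 1.89 CPM in knockout libraries 1 to 4, against 4.21, 3.13, 1.80 and 1.74 CPM in wild-type libraries. Its blocked log2 change of 0.57 ± 0.25 was not called (edgeR adjusted p = 0.235) and was 0.22 when number 2 was left out. Zbtb46 was high in the libraries numbered 1 and 2 of each genotype. Cd74, the invariant chain of antigen presentation, was high in the same numbers, with 107, 134, 25.3 and 40.8 CPM in knockout and 72.0, 71.3, 19.2 and 19.3 CPM in wild type. H2-Ab1, an MHC class II gene of the same marker list, was instead high in numbers 3 and 4, with 23.6, 3.98, 58.6 and 39.5 CPM in knockout and 28.5, 3.24, 81.0 and 99.8 CPM in wild type. Of 9 antigen-presenting markers 3 were tested, and Cd74 alone was called, 33.3% beside 6.71% of all genes. With the block Cd74 changed by 0.74 ± 0.12 (edgeR adjusted p = 0.00781) and H2-Ab1 by -0.51 ± 0.21 (0.204). The 9 markers summed to 81.1 to 140 CPM in knockout and 76.0 to 120 CPM in wild type. Of the same list, Clec9a, Itgax and Flt3 had 0, 16 and 67 counts over all libraries, while Cd74 and H2-Ab1 had the higher values given above. The part of antigen-presenting cells in the values of Zbtb46 was not tested. Zbtb7c stood at 5.33, 1.17, 2.42 and 2.12 CPM in knockout and at 3.53, 0.0282, 1.60 and 0.951 CPM in wild type, where wild type 2 had 1 count (exact Poisson 95% interval 0.0253 to 5.57). Its blocked log2 change of 1.17 ± 0.44 was not called by edgeR (adjusted p = 0.167) and was 0.74 when number 2 was left out. Zbtb12 stood at 3.91, 3.16, 6.79 and 7.18 CPM in knockout and at 2.72, 2.28, 4.97 and 6.46 CPM in wild type, so here the numbers 3 and 4 were the high ones (blocked 0.39 ± 0.15, adjusted p = 0.159).

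**Figure D4:**
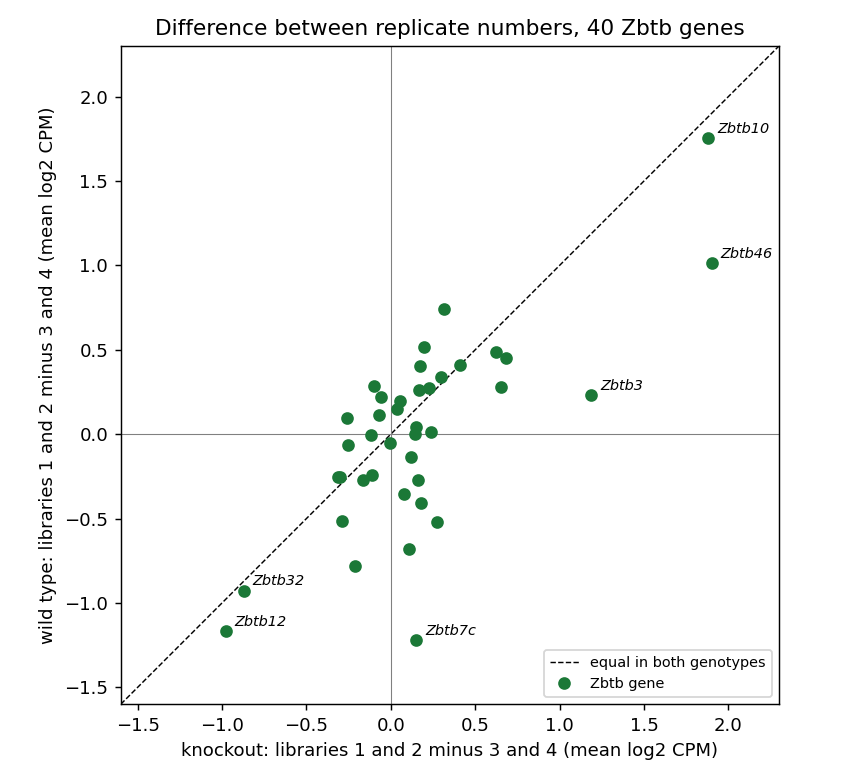
Mean log2 CPM of libraries 1 and 2 minus that of libraries 3 and 4, in knockout (x axis) and in wild type (y axis), 1 point for each of the 40 Zbtb genes tested, with a dashed line where both genotypes are equal. Zbtb10 lies at 1.88 in knockout and 1.75 in wild type and Zbtb32 at -0.87 in knockout and -0.93 in wild type, both near the line, while most genes lie near 0.

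Zbtb48, Zbtb24 and Zbtb5 were not called by edgeR in either fit. Zbtb48, the telomere-binding TZAP of human cells, averaged 16.2 ± 3.11 CPM in knockout and 13.7 ± 2.74 CPM in wild type and was higher in 4 of 4 pairs (blocked log2 change 0.25 ± 0.10, edgeR adjusted p = 0.185). Zbtb24, whose human counterpart is mutated in an immunodeficiency with loss of DNA methylation at centromeres, averaged 17.8 ± 1.51 CPM in knockout and 19.6 ± 1.69 CPM in wild type (adjusted p = 0.472). Zbtb5, described in human cells as a repressor of the cell cycle inhibitor p21, stood at 16.4, 20.3, 15.1 and 17.6 CPM in knockout, against 13.8, 15.6, 12.5 and 11.97 CPM in wild type. It was higher in the knockout in 4 of 4 pairs with a slight overlap of the groups, and its blocked change of 0.36 ± 0.10 missed the threshold in edgeR (adjusted p = 0.0709) but not in DESeq2 with the block (0.0478). In 726 bases, or 13.0%, of its exons Zbtb5 overlaps an antisense gene, 1700055D18Rik, which had 218 counts over all libraries.

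Zbtb44 was steady, at means of 54.7 ± 2.65 CPM in knockout and 53.9 ± 3.98 CPM in wild type. Its blocked 95% interval ran from -0.16 to 0.21 on the log2 scale. Zbtb14 (18.9 ± 1.16 and 16.3 ± 1.63 CPM, blocked change 0.22 ± 0.09) and Zbtb21 (33.2 ± 3.77 and 28.9 ± 3.52 CPM, 0.20 ± 0.08) were higher in all 4 pairs, in knockout and wild type in that order, with adjusted p of 0.211 and 0.212. In all, 11 of the 40, or 27.5%, were higher in the knockout in every pair, beside 15.8% of all genes, and 4, or 10%, were lower in every pair, beside 14.8% of all genes. For 29 of the 40, or 72.5%, the blocked 95% interval crossed 0, as it did for 78.3% of all genes.

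Among the 42 rows, Zbtb8os and Zbtb11os1 are named for a neighbour and encode no ZBTB protein. Zbtb8os encodes archease, a helper of the tRNA ligase complex, and averaged 39.98 ± 2.16 CPM in knockout and 41.3 ± 6.05 CPM in wild type. Zbtb11os1 is annotated as an antisense transcript, and shares 489 bases with Zbtb11, which is 36.2% of its exons. Neither was called. Some counts are uncertain. Zbtb8a and Zbtb8os share 264 exon bases on opposite strands, and the strand setting of the counting is not given. Zbtb6 and Zbtb26 share 449 exon bases on the same strand, as does Zbtb9 with Ggnbp1 over 84.4% of its exon bases, so reads there cannot be assigned by strand.

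Of 10 Zbtb-type genes that carry other symbols 9 were tested. With the block 1 was lower and 0 were higher in the knockout, 11.1% beside 6.71% of all genes (4.01% lower). That gene was Hic1, a repressor known as a tumour suppressor, at 35.3, 36.3, 40.4 and 30.1 CPM in knockout, against 51.1, 46.3, 54.0 and 36.9 CPM in wild type. Its log2 change was -0.40 ± 0.08 with the block (edgeR adjusted p = 0.0211) and -0.41 ± 0.14 without it (0.503). Bcl6 averaged 9.55 ± 1.93 CPM in knockout and 7.29 ± 0.924 CPM in wild type (blocked 0.38 ± 0.16, adjusted p = 0.215). Patz1, a relative needed in thymocytes (57.1 ± 4.60 and 48.5 ± 6.997 CPM, in knockout and wild type in that order) and Nacc1 (213 ± 3.48 and 198 ± 23.5 CPM) were not called.

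All 20 listed corepressors and other partners of the BTB domain were tested. With the block 1 was higher and 1 lower, together 10% beside 6.71% of all genes, and 18 were not called. Bcor, the corepressor named after its binding to BCL6, averaged 177 ± 26.0 CPM in knockout and 143 ± 14.0 CPM in wild type (0.30 ± 0.07 with the block, edgeR adjusted p = 0.0476, and 0.563 without it). Mta3, a subunit of the NuRD complex, averaged 46.6 ± 4.99 CPM in knockout and 60.1 ± 10.1 CPM in wild type (-0.36 ± 0.08, 0.0309, and 0.533 without it). The abundant Hdac1 (278 ± 15.0 CPM in knockout and 298 ± 18.2 CPM in wild type) and Ncor1 (244 ± 39.3 and 228 ± 34.9 CPM) were not called.

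Genes tied to ThPOK and to the choice between the CD4 and CD8 lineages gave 2 higher and 1 lower of 14 tested with the block, together 21.4% beside 6.71% of all genes. Tox averaged 46.9 ± 13.2 CPM in knockout and 18.7 ± 11.8 CPM in wild type (1.44 ± 0.21, edgeR adjusted p = 0.00627), and Tcf7 averaged 149 ± 41.7 CPM in knockout and 105 ± 34.4 CPM in wild type (0.52 ± 0.08, 0.00836). Socs3, a brake on cytokine signalling, was lower, at -0.39 ± 0.09 (0.0461). Without the block the edgeR adjusted p was 0.386 for Tox, 0.694 for Tcf7 and 0.902 for Socs3. Cd4 averaged 564 ± 101 CPM in knockout and 510 ± 67.7 CPM in wild type (adjusted p = 0.263), and Runx3, the CD8-lineage factor that opposes ThPOK, 159 ± 23.6 CPM in knockout and 210 ± 51.7 CPM in wild type (-0.38 ± 0.11, 0.0764). Neither Cd4 nor Runx3 was called by edgeR, while DESeq2 with the block called Runx3 (adjusted p = 0.0189), which was lower in the knockout in 4 of 4 pairs.

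Of 16 genes of the PLZF programme of innate-like T cells, 13 were tested. With the block 3 were lower and 0 higher, 23.1% beside 6.71% of all genes (4.01% lower). They were the chemokine receptor genes Cxcr6 (3.03 ± 1.04 CPM in knockout and 12.8 ± 4.37 CPM in wild type, -2.07 ± 0.15, edgeR adjusted p = 0.000271) and Ccr2 (-1.31 ± 0.18, 0.00461) and the gene of the transcriptional inhibitor Id2 (-0.51 ± 0.08, 0.00631). None of the 3 was called with genotype only, although DESeq2 without the block called Cxcr6 (adjusted p = 3.13e-08). Of 10 genes linked with Zbtb32 in earlier work, 9 were tested, of which 2 were lower and 1 higher with the block, together 33.3% beside 6.71% of all genes. Prdm1, whose product Blimp-1 is a partner of Zbtb32 in repression, stood at 11.1, 11.1, 54.5 and 26.6 CPM in knockout, against 45.7, 55.0, 135 and 115 CPM in wild type. Like Zbtb32 it was highest in the libraries numbered 3 and 4 of each genotype, and its change was -1.93 ± 0.15 (edgeR adjusted p = 0.000362 in the blocked fit and 0.444 in the other). Ifng was lower (-1.17 ± 0.08) and the low Il13 higher (1.14 ± 0.28, adjusted p = 0.0472). Il4, also low, changed the other way from Il13 and was not called (-0.63 ± 0.38, adjusted p = 0.384). Gata3 (10.7 ± 6.81 CPM in knockout and 11.4 ± 9.46 CPM in wild type), Eomes (6.43 ± 4.78 and 5.15 ± 3.54 CPM) and Cd27 (60.9 ± 7.32 and 66.6 ± 5.75 CPM) were not called. Over the union of the 5 lists the blocked fit called 12 of 63 genes, or 19.0%, beside 6.71% of all genes. The fit with genotype only called 0, where 9, or 14.3%, had an unadjusted p under 0.05, beside 8.1% of all genes. DESeq2 without the block called 3 (Tox, Cxcr6 and Ifng), or 4.76%, beside 1.46% of all genes. The lists were chosen with earlier results of these data known, so these shares are descriptions.

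Lists of markers of other cell types gave the following values. For comparison, the blocked fit called 6.71% of all genes in either direction and 4.01% of all genes as lower. Of the gamma-delta and NKT genes, 4 of 5 tested, or 80%, were lower in the blocked fit (edgeR), all 4 of them receptor constant-region genes. Of 4 NK cell genes tested, Klre1 and Klra7, or 50%, were lower (adjusted p of 0.0285 and 0.0488). Ncr1, the defining NK receptor gene, had no count. The NK list summed to 4.57 to 13.3 CPM in knockout and 5.03 to 13.9 CPM in wild type. Of the red cell and granulocyte genes Ly6g alone was tested, and it was lower (log2 change -2.38 ± 0.25, adjusted p = 0.00118). That list summed to 0.297 to 15.3 CPM in knockout and 0.226 to 79.2 CPM in wild type, with S100a8 at 0 and Hba-a1, S100a9 and Elane under 10 counts in all. B cell genes summed to 36.7 to 55.7 CPM in knockout and 41.2 to 96.2 CPM in wild type, mostly Ighm, with 0 of 4 called. CD8 genes summed to 3.32 to 16.2 CPM in knockout and 4.44 to 12.7 CPM in wild type, again with 0 of 2 called. Mast cell and basophil genes summed to 1.89 to 3.96 CPM in knockout and 3.19 to 20.7 CPM in wild type, with 0 of 1 called. The part of these cells in the differences above was not tested.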

How the data were processed

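Counts per gene were deposited by the authors as whole numbers, unnormalized, for 8 libraries. The submitters' processing notes name GRCm38, STAR 2.5.2, Subread 1.5.2 (featureCounts) and DESeq2. The annotation, strand setting and handling of multiply aligned reads were not given in the sources used here. Other columns, per the file headers, hold DESeq2 log2 fold changes, adjusted p-values, mean normalized counts (a signal) and test statistics (a score). By the authors' deposited table, no Zbtb gene had an adjusted p under 0.05, where 225 genes in all did. DESeq2 with genotype only, as run here, called as many, or 1.46% of the genes with an adjusted p.

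Counts were tested with edgeR 4.0.16 (quasi-likelihood, TMM factors, filterByExpr, Benjamini-Hochberg over all 14672 genes) in R 4.3.3, with genotype as the only term as planned. CPM uses TMM-scaled totals, and log2 CPM a prior count of 2. The blocked fit adds the replicate number, because deviations of same-numbered libraries correlated at 0.61 to 0.73 across genes and each library matched its own number best. The labels name no shared animal or day. Libraries of a group differed beyond sampling noise (chi-square per degree of freedom 14.5 or more). Both fits were run on simulated counts with known changes, which held differences between replicate numbers for the blocked fit only. The simulation therefore cannot tell which fit suits these data. The members and lists were chosen with earlier results of these data known. Named genes were Zbtb32, Zbtb7b, Zbtb16, members called in either fit, the 5 with the highest mean CPM, the 5 with the largest changes, those without overlap, those with a library standing apart, and from the lists called genes with up to 3 others. Further genes were named after their values were seen. Alternatives were DESeq2 1.42.0, limma-voom 3.58.1, other scalings and filters, and leaving out libraries.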

Additional observations from a re-analysis of the deposited data

Results flagged for a closer look

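Chance alone puts about 1 in 20 groups of 4 libraries past the limit used here for a library that stands apart. Of 84 groups checked (42 genes in each genotype), 3 passed it. Zbtb16 stood at 1.44 CPM in knockout 3, against 0.0285 to 0.223 CPM in the other knockout libraries. Zbtb8a stood at 5.36 CPM in wild type 2, against 3.17 to 3.44 CPM in the other wild-type libraries. Zbtb8os stood at 50.3 CPM in the same library, wild type 2, against 37.0 to 39.0 CPM in the others. Zbtb8a and Zbtb8os share 264 exon bases on opposite strands, and their part in these values was not tested.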

How the results depend on the processing

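The scaling factors, filters and tools tried without the block left the count of Zbtb genes called at 0, as did leaving out any library. With the replicate block the counts were 984 genes over the whole table, 3 Zbtb genes (2 higher, 1 lower) and 12 list genes, and Zbtb32 at -0.98 became a call. The following blocked alternatives were chosen after seeing the data. DESeq2 with the block called 1385 genes, 6 Zbtb genes (4 higher, 2 lower) and 16 list genes (Zbtb32 -0.98). The block with DESeq2 size factors called 995, 3 (2 and 1) and 12 (-0.98), and with library totals only 1018, 3 (2 and 1) and 13 (-0.95). Without the block DESeq2 called 225 genes and 3 list genes, and dropping the filter 1 list gene. Leaving out a library gave 14 to 24 genes, 0 Zbtb genes and 0 list genes with genotype only. Leaving out numbers 1, 2, 3 and 4 in turn from the block gave 622, 1437, 398 and 529 genes, 2 to 5 Zbtb genes (1 to 2 higher, 1 to 3 lower), 8, 15, 6 and 7 list genes, and Zbtb32 at -0.93, -1.04, -1.01 and -0.93. Zbtb32 stayed between -1.26 and -0.77 and uncalled without the block, and Zbtb7b kept its sign, uncalled, in every alternative. The 5 Zbtb genes called without number 2 added Zbtb4 and Zbtb38. For Zbtb16 leave-out values mix unlike quantities: differences of mean log2 CPM where it failed the filter (-0.44 without knockout 3) and edgeR fitted changes where it passed (1.52 without knockout 1). With the block its differences of mean log2 CPM were -0.050 without number 2 and -0.12 without number 3. The sign of Zbtb7a, near 0, turned with the block (0.015), library totals (0.021), limma-voom (0.015), DESeq2 with the block (0.015), the block with DESeq2 size factors (0.015) or with library totals (0.040). It also turned with the block without numbers 1, 3 and 4 (0.021, 0.045 and 0.13), and ran from -0.15 to 0.080 over left-out libraries. Zbtb1 ran from -0.057 to 0.15, with -0.0083 and -0.026 in the block without numbers 1 and 4. The cause was not tested. The median change of the Zbtb genes stayed between 0.02 and 0.09 over left-out libraries and numbers. Zbtb8b (23 counts) and Zbtb16 (78 counts) were too low to enter the fit across genes, and without the filter edgeR fitted Zbtb16 at 1.10.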
